A study of Mus musculus with 6 samples.

Results

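The transcripts described here are those of 34 genes for the uptake, activation, mitochondrial import and oxidation of fatty acids, chosen by symbol from the 24421 genes of the expression table. All 34 were found, with 6 genes for uptake, 4 for activation and thioester handling, 5 for the carnitine shuttle, 14 for beta-oxidation, 3 for electron transfer and 2 for fuel choice and uncoupling. Polyadenylated RNA was sequenced from C57/Bl6 mouse hearts at stage E18.5, shortly before birth, from 3 wildtype samples and 3 samples labelled Gas2l3 -/-. The Gas2l3 protein links actin filaments with microtubules, and the title of the series names defects of cardiomyocyte cytokinesis in mice that lack it. No agent was given to either group. The labels neither describe the deleted part of the gene nor say whether 1 library came from 1 heart, so p-values measure only the spread between these samples, which may be technical. Values are in FPKM as deposited, a read density per transcript length with the counts scaled between libraries. In every run of values below, the 3 wildtype-labelled libraries come first and the 3 knockout-labelled libraries second, each as replicates 1, 2 and 3.

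Long-chain fatty acids released from lipoproteins enter the cell through membrane carriers, are bound by fatty acid binding proteins and are joined to coenzyme A by acyl-CoA synthetases. The carnitine shuttle carries them into the mitochondrial matrix, where beta-oxidation removes acetyl-CoA units and passes electrons through the electron transfer flavoprotein to the respiratory chain. The fetal heart relies largely on glucose and lactate, and fatty acid oxidation becomes its main fuel supply after birth.

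Hadha and Hadhb encode the alpha and beta subunits of the mitochondrial trifunctional protein, which carries out the last steps of long-chain beta-oxidation, and their genes are transcribed away from each other from neighbouring starts. Hadha lies on chromosome 5 from 30118304 to 30155162 on the minus strand, and Hadhb from 30155248 to 30184593 on the plus strand, in GRCm38 with GENCODE annotation. The 85 bases between these starts, at chr5:30155163-30155247, lie in neither gene, upstream of both. They are shown because the ratio of these 2 genes is the 1 partner ratio of 7 in which the groups did not overlap. Among all tested genes, taken singly, the groups did not overlap in 9.76%, and no such share was taken over ratios. The sequence is RefSeq's (build GRCm38.p6), printed 5′ to 3′ on the plus strand, toward Hadhb. Capitals mark matches to GGGCGG, a GC box, the core letters bound by Sp1-type factors.
Hadha-Hadhb intergenic: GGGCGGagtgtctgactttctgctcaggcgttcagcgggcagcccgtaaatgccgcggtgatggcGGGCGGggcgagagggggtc
The stretch is 69.4% G and C and holds 2 matches on the plus strand, at bases 1 to 6 and 66 to 71 counted from its 5′ end. A match is a description of the letters only.

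The libraries held 3414257 to 7732674 reads, recovered from the deposited values. The 34 genes took 0.845% to 1.05% of the reads of a library. Summed over all genes, the FPKM ran from 429622 in wildtype-labelled replicate 1 to 788996 in wildtype-labelled replicate 3. Wildtype-labelled replicate 3 stood apart from the other 5: its mean correlation with them over all tested genes was 0.899, against 0.935 to 0.957 for each of the others. Its deviation from the mean of all libraries followed the GC content of the transcripts over all tested genes (r = 0.702 across genes, which are not independent replicates). The same correlation was -0.474 in wildtype-labelled replicate 1 and -0.481 in knockout-labelled replicate 1, and -0.0709 to -0.159 in the other 3. Gas2l3 itself measured 10.3, 4.12 and 2.48 FPKM in the wildtype-labelled and 4.03, 2.99 and 3.06 FPKM in the knockout-labelled libraries, so the groups overlapped. The difference was -0.47 on the log2 scale (SE 0.44, limma adjusted p = 0.966), and -0.88 without wildtype-labelled replicate 3 but 0.05 without wildtype-labelled replicate 1. With loess trends on GC content and length taken out of each library, every knockout-labelled value lay below every wildtype-labelled one (log2 2.97, 2.37 and 2.16 against 1.79, 1.94 and 1.81), a difference of -0.65 (SE 0.23, limma adjusted p = 0.572). A level over the whole gene does not show whether the deleted part was read, and the labels were not settled by it.

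No member changed past the threshold of the test. Of the 33 members that reached 1 FPKM in at least 3 libraries, limma called 0 at an adjusted p under 0.05. The background was 0.0% of the 12121 genes tested. At an unadjusted p under 0.05 the count was 1 member, Hadhb, against 3.25% of all tested genes. Hadhb, at 0.88 on the log2 scale, showed the largest difference of the 33, followed by Cd36 at 0.63 and Fabp4 at 0.62 on the higher side and by Etfb at -0.61 and Slc27a1 at -0.57 on the lower side. Without wildtype-labelled replicate 3, Etfb was at -0.07. The knockout-labelled mean was lower for 21 members and higher for 12, so 63.6% were lower, against 51.0% of all tested genes. The median log2 fold change of the members was -0.08 and that of all tested genes -0.01. That median turned positive, at 0.10, when the libraries were rescaled to a common FPKM total, which also moved the median of all genes to 0.15 and left 15 members lower, and it was 0.01 after quantile normalization, with 16 lower. In 5 of the 33 members (15.2%) the groups did not overlap, against a background of 9.76%. Hadhb was the 1 member higher (background 5.02%), and Slc27a1, Cpt2, Acaa2 and Acot2 were the 4 lower (background 4.74%), in all 3 knockout-labelled libraries. In the authors' deposited table, which gave an adjusted p for 33 members, 0 were under 0.05, and 9 of 12243 genes were (0.0735%).

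**Figure D1:**
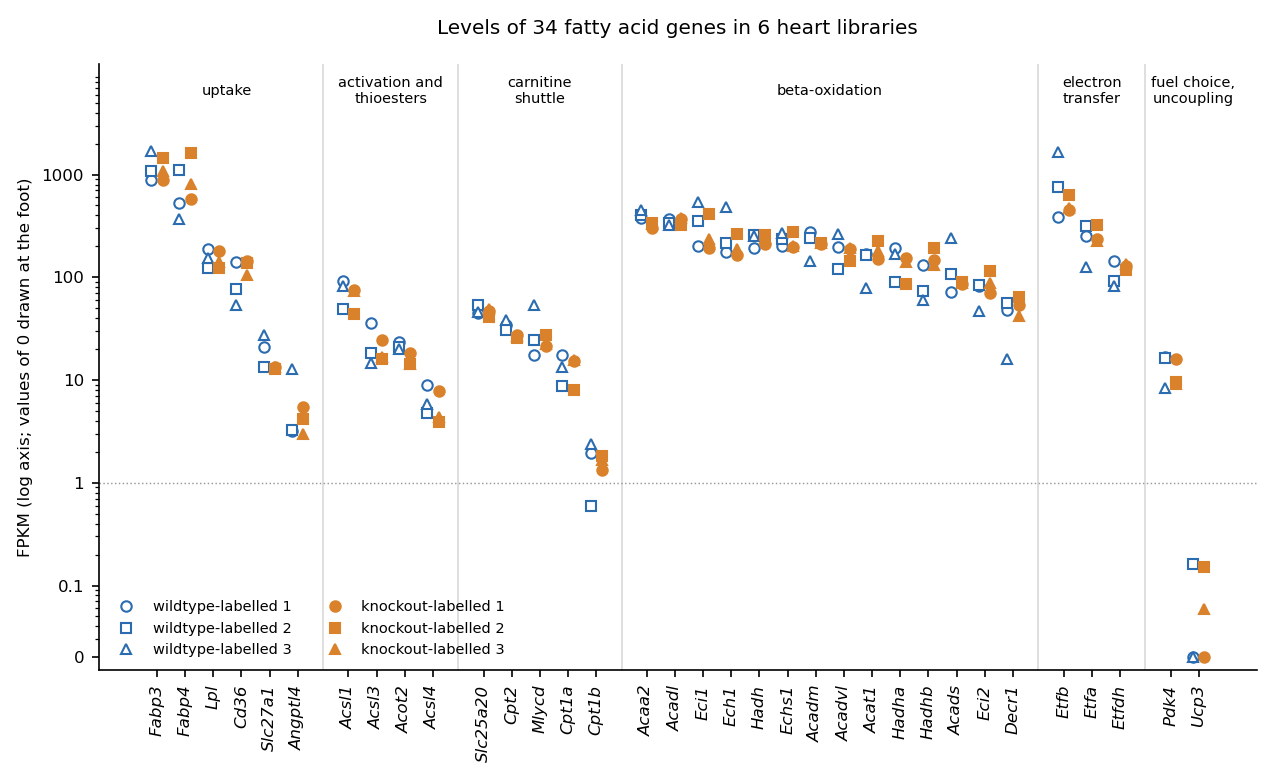
FPKM of each of the 34 genes on a log axis, grouped by step, with open blue symbols for wildtype-labelled and filled orange symbols for knockout-labelled libraries and 1 symbol shape per replicate number. Levels ran from 1682 FPKM for Fabp3 in wildtype-labelled replicate 3 down to 0 for Ucp3, and the groups overlap for most genes.

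The levels of the genes spanned more than their differences between groups. Fabp3, the heart type fatty acid binding protein, had the highest mean, 1183 FPKM over the 6 libraries, and ranked 60 among all genes of the table. Fabp4 followed at 839, Etfb at 728, Acaa2 at 367 and Acadl at 351 FPKM. The lowest means were those of Pdk4 at 12.7, Acsl4 at 5.95, Angptl4 at 5.31, Cpt1b at 1.62 and Ucp3 at 0.0620 FPKM. In this order of mean FPKM, neighbouring genes overlapped in range over the 6 libraries except Slc25a20 and Cpt2, Angptl4 and Cpt1b, and Cpt1b and Ucp3.

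**Figure D2:**
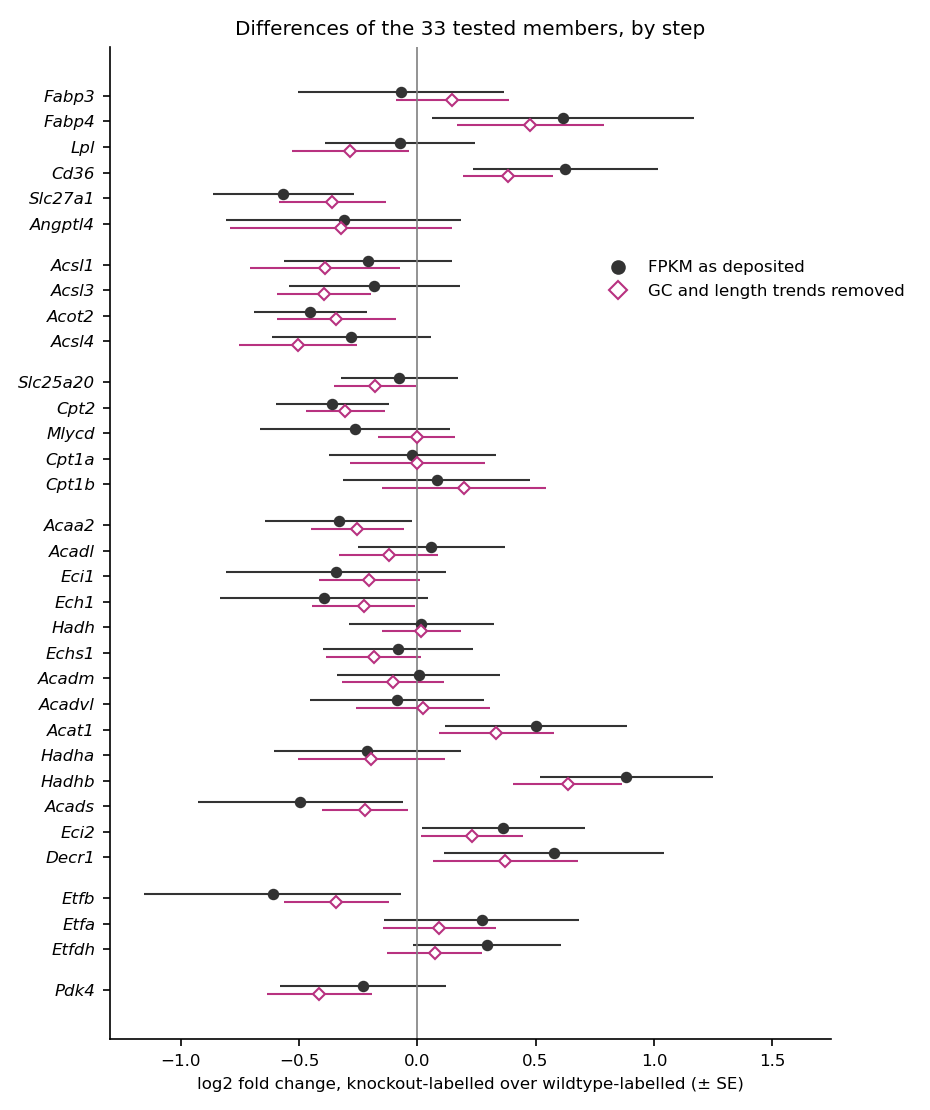
Log2 fold change of the 33 tested members, knockout-labelled over wildtype-labelled, with bars of 1 SE, by step; filled circles use FPKM as deposited and open diamonds use trend-removed values, from which library trends on GC content and length were taken out. Hadhb lies farthest to the right, at 0.88 and 0.64, and the 4 genes of activation and thioester handling all lie left of 0.

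The library that stood apart bore on these differences. Across the 33 tested members, the deviation of wildtype-labelled replicate 3 was higher at higher GC content (Pearson r = 0.796, Spearman rho = 0.829; points share 1 library, and no p is given). The correlation was negative in wildtype-labelled replicate 1 (r = -0.533) and in knockout-labelled replicates 1, 2 and 3 (r = -0.698, -0.242 and -0.364). In wildtype-labelled replicate 2 it was 0.0135. Wildtype-labelled replicate 3 was the highest or the lowest of the 6 libraries for 23 members (69.7%), against 71.6% of all tested genes. Of the 17 members with the higher GC content, 2 had a higher knockout-labelled mean, and the median log2 fold change was -0.31. Of the 16 with the lower GC content, 10 had a higher mean, with a median of 0.17. Without wildtype-labelled replicate 3 these medians were -0.01 and 0.02. With each library's loess trends on GC content and length taken out, they were -0.20 and -0.02. After trend removal, limma again called 0 members (background 0.00854%), and 1, Hadhb, had an unadjusted p under 0.05 (background 7.83%). The counts were then 21 lower and 12 higher (background 51.5% lower), and the median over members was -0.18 (all genes -0.01). Groups then did not overlap in 3 members (9.09%), below the background of 15.1%: 2 were higher (Hadhb and Cd36, background 6.61%) and 1 was lower (Cpt2, background 8.47%). These values, called trend-removed below, stand beside the main values.

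**Figure D3:**
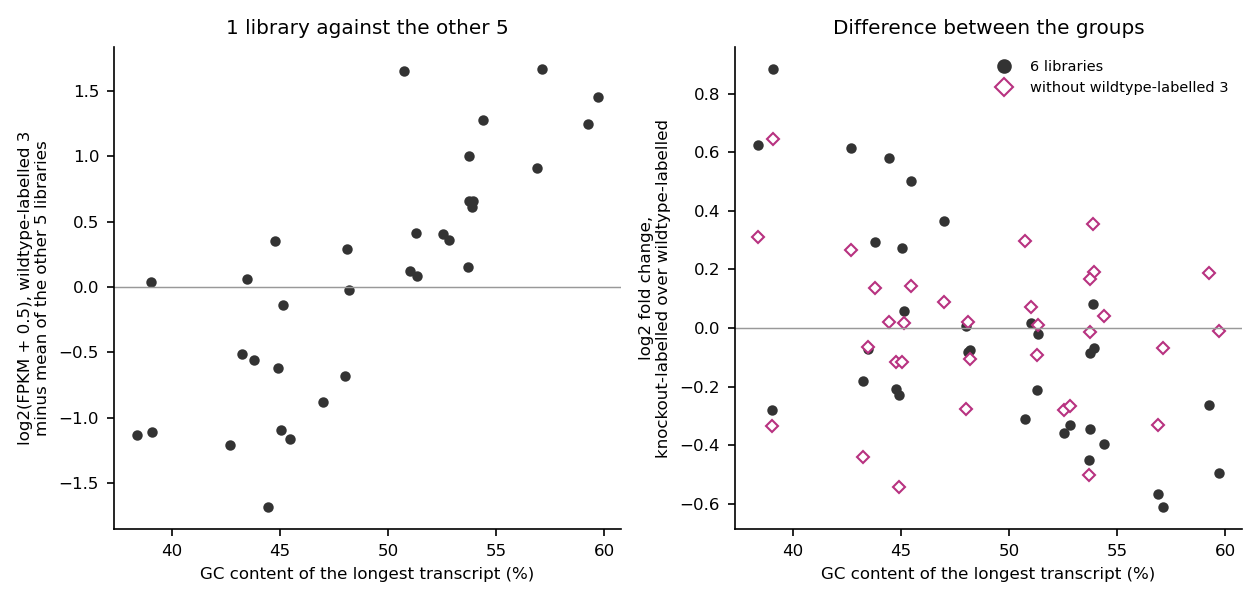
Left, the log2(FPKM + 0.5) value of wildtype-labelled replicate 3 minus the mean of the other 5 libraries for each of the 33 tested members, against the GC content of its longest transcript; right, the log2 fold change between groups against the same GC content, with all 6 libraries (filled) and without that library (open). The left points rise with GC content (r = 0.796), and the filled right points fall from Hadhb at 0.88 to Etfb at -0.61, while the open ones lie between 0.64 for Hadhb and -0.54 for Pdk4.

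Among the 6 uptake genes, 2 had a higher and 4 a lower knockout-labelled mean, and the median log2 fold change was -0.07 (trend-removed -0.07, and 0.23 without wildtype-labelled replicate 3). Cd36 is the membrane carrier for long-chain fatty acids. It measured 139.9, 76.3 and 53.4 FPKM in the wildtype-labelled libraries and 145.4, 136.4 and 106.4 FPKM in the knockout-labelled ones. Replicates 2 and 3 of the wildtype label lay below every other library, while replicate 1 lay within the knockout-labelled range. Cd36 differed by 0.63 on the log2 scale (SE 0.39, limma adjusted p = 0.966), higher in 3 of 3 pairs of the same number, and 0.31 without wildtype-labelled replicate 3. The trend-removed difference was 0.38 (SE 0.19, limma adjusted p = 0.687) and the groups no longer overlapped. Cd36 kept its sign under all 19 alternatives run.

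Slc27a1 encodes a fatty acid transport protein with acyl-CoA synthetase activity. It measured 20.7, 13.5 and 27.6 FPKM and then 13.4, 12.9 and 13.3 FPKM. The 3 knockout-labelled values lay close together, just under the lowest wildtype-labelled value, so the groups did not overlap by a narrow margin. The difference was -0.57 on the log2 scale (SE 0.30, limma adjusted p = 0.966). Without wildtype-labelled replicate 3 it was -0.33, and trend-removed it was -0.36 with overlapping groups.

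Fabp3 measured 891, 1087 and 1682 FPKM and then 885, 1464 and 1091 FPKM. Its groups overlapped, and its log2 fold change of -0.07 (SE 0.44) turned to 0.15 with trends removed and to 0.19 without wildtype-labelled replicate 3. Fabp4 is the fatty acid binding protein of adipocytes and of capillary endothelium. It measured 526, 1107 and 368.9 FPKM in the wildtype-labelled libraries and 582.1, 1634 and 812.9 FPKM in the knockout-labelled ones. The groups differed by 0.62 on the log2 scale (SE 0.56, limma adjusted p = 0.966), higher in 3 of 3 pairs of the same number. Replicate 2 held the highest value under both labels. With 1 library left out the difference ran from 0.20, without knockout-labelled replicate 2, to 1.06.

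Markers of fat were read in each of the 6 libraries. Of 6 white fat markers, Adipoq measured 1.81, Plin1 0.582, Cfd 1.20 and Cidec 0.540 FPKM in knockout-labelled replicate 2. Plin1, Cfd and Cidec had 0 reads in each of the other 5, and Adipoq 0 to 3 reads. The brown fat marker Ucp1 had 9 reads there and 0 in the others, where a count of 0 allows up to 3 reads. Retn and Lep, the other two white fat markers, were at 0 in that library. Summed over the 6 white fat markers and Ucp1, the reads were 1, 5, 1, 0, 38 and 0 in the 6 libraries. The 6 white fat markers summed to 0.133 to 0.462 FPKM in the wildtype-labelled and 0 to 4.13 FPKM in the knockout-labelled libraries. The 6 brown fat markers summed to 28.1 to 48.6 FPKM and 29.9 to 34.7 FPKM. Of these, Cidea measured 13.1 FPKM in knockout-labelled replicate 2, below the 13.8 FPKM of wildtype-labelled replicate 3. Ppargc1a had its lowest value, 12.5 FPKM, in knockout-labelled replicate 2, so the brown fat list did not follow Ucp1 as a whole. The part of fat tissue in the Fabp4 value was not tested.

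**Figure D4:**
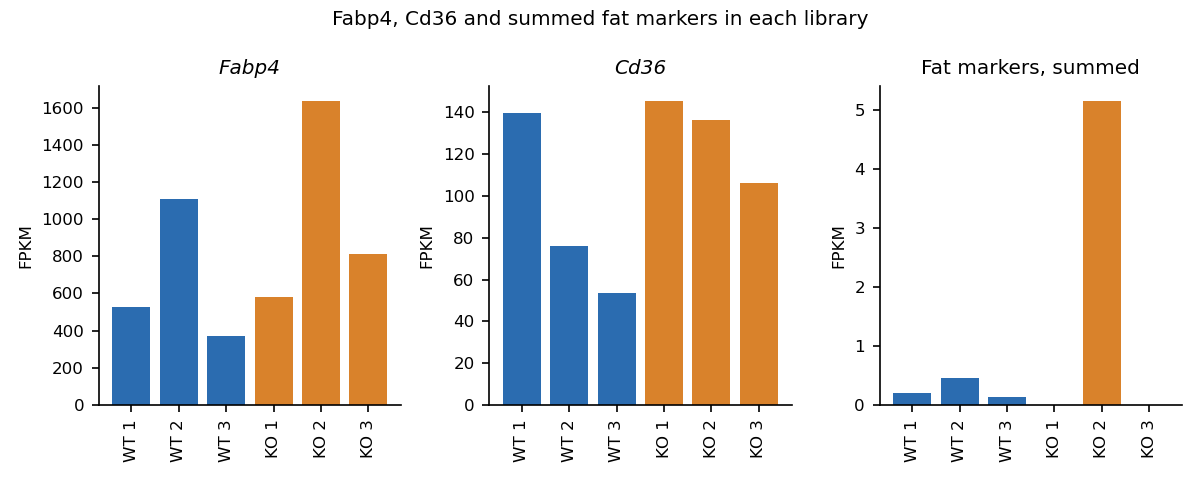
FPKM of Fabp4, of Cd36 and of fat markers summed (Adipoq, Plin1, Cfd, Retn, Cidec, Lep and Ucp1) in each library, WT for wildtype-labelled and KO for knockout-labelled. Fabp4 and the fat markers share their highest library, knockout-labelled replicate 2, with 1634 FPKM and 5.15 FPKM, while Cd36 there, at 136.4 FPKM, lies below knockout-labelled replicate 1. The next highest Fabp4 value, 1107 FPKM in wildtype-labelled replicate 2, stands beside 0.462 FPKM of fat markers.

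Endothelial cells also express Cd36 and Fabp4. Of 8 endothelial markers, 4 had a higher and 4 a lower knockout-labelled mean, and the median log2 fold change was 0.00 (0.39 without wildtype-labelled replicate 3). Their sum was 369 to 822 FPKM in the wildtype-labelled and 451 to 541 FPKM in the knockout-labelled libraries. Emcn, a sialomucin of capillary and venous endothelium, did not overlap between groups, at 44.0, 59.0 and 50.8 FPKM against 88.1, 146.8 and 97.4 FPKM. It differed by 1.08 on the log2 scale (SE 0.30, limma adjusted p = 0.966). Groups did not overlap in 1 of the 8 markers, against 9.76% of all tested genes. Of the other markers, Tek differed by 0.41 (SE 0.25) and Egfl7 by -0.40 (SE 0.53), or 0.39 and 0.15 without wildtype-labelled replicate 3. The part of endothelial cells in the Cd36 and Fabp4 values was not tested. In these bulk samples, fewer cells of a type and less RNA per cell cannot be told apart.

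The other two uptake genes act outside the cell on lipoprotein fat. Lpl, lipoprotein lipase, ranged from 122.1 to 189.3 FPKM over the 6 libraries with a log2 fold change of -0.07 (SE 0.32). Angptl4, an inhibitor of that lipase, ranged from 2.97 to 12.8 FPKM, with its highest value in wildtype-labelled replicate 3. A log2 fold change of -0.31 (SE 0.50) became 0.30 without that library.

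All 4 genes of activation and thioester handling had a lower knockout-labelled mean. Their median log2 fold change was -0.24, or -0.39 both with trends removed and without wildtype-labelled replicate 3. None passed the test, and the step holds only 4 genes. Acsl1 is the main long-chain acyl-CoA synthetase of heart muscle. It measured 91.6, 49.5 and 82.0 FPKM and then 75.1, 43.5 and 73.6 FPKM. Replicate 2 was lowest under both labels, and each knockout-labelled value was below the wildtype-labelled value of its number, with a log2 fold change of -0.21 (SE 0.35) that became 0.05 without knockout-labelled replicate 2.

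Acsl3, a synthetase of the endoplasmic reticulum and lipid droplets, measured 35.7, 18.4 and 14.8 FPKM and then 24.5, 16.0 and 16.9 FPKM. Its wildtype-labelled libraries spanned a wider range than the knockout-labelled ones. On the log2 scale it differed by -0.18 (SE 0.36), and 0.18 without wildtype-labelled replicate 1. Acsl4, a synthetase that favours arachidonic acid, measured 8.99, 4.80 and 5.84 FPKM and then 7.79, 3.90 and 4.38 FPKM. It was lower in each of the 3 pairs, at -0.28 (SE 0.34), and trend-removed at -0.51 (SE 0.25, limma adjusted p = 0.683).

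Acot2, a mitochondrial thioesterase that releases free fatty acid from acyl-CoA, measured 23.6, 21.0 and 20.0 FPKM and then 18.47, 14.3 and 14.3 FPKM. Each knockout-labelled library lay below each wildtype-labelled one. The log2 difference was -0.45 (SE 0.24, limma adjusted p = 0.966) and kept its sign under all 19 alternatives. As the groups did not overlap, leaving out 1 library could not change that sign. Acot1, its cytosolic near-identical paralog, measured 8.37, 11.0 and 12.9 FPKM and then 7.14, 4.64 and 4.92 FPKM, also without overlap. Acot1 differed by -0.89 on the log2 scale (SE 0.27). How the authors' counting divided reads between these copies is not given in the sources used here, so both values are uncertain.

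Of the 5 carnitine shuttle genes, 1 had a higher and 4 a lower knockout-labelled mean, and the median log2 fold change was -0.08 (trend-removed -0.0034, and 0.01 without wildtype-labelled replicate 3). Cpt2, the inner membrane carnitine palmitoyltransferase, measured 34.1, 30.6 and 38.1 FPKM and then 27.2, 25.6 and 26.8 FPKM. Each knockout-labelled library lay below each wildtype-labelled one, also with trends removed. The difference on the log2 scale was -0.36 (SE 0.24, limma adjusted p = 0.966), trend-removed -0.30 (SE 0.17, limma adjusted p = 0.702) and -0.28 without wildtype-labelled replicate 3.

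Slc25a20, the carnitine-acylcarnitine carrier, had the highest mean of the step over the 6 libraries and measured 44.9, 53.2 and 46.1 FPKM and then 46.6, 41.4 and 48.6 FPKM. Its groups overlapped, and the log2 fold change was -0.08 (SE 0.25). Mlycd breaks down malonyl-CoA, the inhibitor of the outer membrane transferase. It measured 17.5, 24.6 and 54.0 FPKM and then 21.6, 27.4 and 22.6 FPKM. Its log2 fold change of -0.26 (SE 0.40) turned to 0.19 without wildtype-labelled replicate 3, whose value was the highest.

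The outer membrane transferase has a liver form, Cpt1a, and a muscle form, Cpt1b, and the muscle form is the main one of the adult heart. Cpt1a measured 17.4, 8.81 and 13.3 FPKM and then 15.2, 8.04 and 15.8 FPKM. Cpt1b measured 1.94, 0.593 and 2.39 FPKM and then 1.34, 1.80 and 1.66 FPKM, from as few as 13 reads in wildtype-labelled replicate 2. Within a library the FPKM ratio of Cpt1b to Cpt1a was 0.112, 0.0672 and 0.180 and then 0.0882, 0.224 and 0.105. The liver form was thus the higher of the pair in all 6 libraries, and the log2 ratio did not differ beyond the spread (difference 0.20, two-sided exact permutation p = 0.8).

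The 14 beta-oxidation genes divided into 7 with a higher and 7 with a lower knockout-labelled mean, and the median log2 fold change was -0.04 (trend-removed -0.11, and 0.02 without wildtype-labelled replicate 3). Rescaled to a common FPKM total the median was 0.14, and after quantile normalization 0.11. Hadhb, whose product holds the long-chain ketothiolase activity of the trifunctional protein, measured 132.0, 73.8 and 59.8 FPKM in the wildtype-labelled libraries and 146.1, 190.7 and 132.6 FPKM in the knockout-labelled ones. Each knockout-labelled library lay above each wildtype-labelled one, the lowest of them only just above wildtype-labelled replicate 1. Hadhb differed by 0.88 on the log2 scale (SE 0.37, limma adjusted p = 0.966). It was 0.64 both with trends removed (SE 0.23, limma adjusted p = 0.574) and, to 2 decimals, without wildtype-labelled replicate 3. Its sign held under all 19 alternatives, but groups that do not overlap fix the sign whenever 1 library is left out. In the authors' deposited table its log2 fold change was 0.61 with an adjusted p of 0.998.

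Hadha, whose product holds the hydratase and dehydrogenase activities of the same complex, measured 193, 90.4 and 169 FPKM and then 156, 86.6 and 140.7 FPKM. Its groups overlapped, with a log2 fold change of -0.21 (SE 0.39). Within a library, the FPKM ratio of Hadha to Hadhb was 1.46, 1.23 and 2.83 and then 1.07, 0.454 and 1.06. The 3 knockout-labelled ratios were all below the 3 wildtype-labelled ones, and knockout-labelled replicate 2 was the lowest. The log2 ratio was 0.78 ± 0.64 (SD, n = 3) under the wildtype label and -0.32 ± 0.71 (SD, n = 3) under the knockout label. Their difference was -1.10, with a two-sided exact permutation p = 0.1, the smallest that 3 against 3 allows, and 0.7 adjusted over the 7 partner ratios. With trends removed the difference was -0.83 (exact permutation p = 0.1). The log2 ratio of Hadha to Hadhb differed by -0.69 without knockout-labelled replicate 2 and by -0.74 without wildtype-labelled replicate 3. The shared stretch upstream of this pair is the one printed above.

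Acat1, the mitochondrial acetoacetyl-CoA thiolase, measured 167, 166 and 78.6 FPKM and then 151.9, 227.1 and 180.5 FPKM. Wildtype-labelled replicate 3 was the low value, and the log2 fold change of 0.50 (SE 0.38) was 0.14 without it. Acaa2, the matrix ketothiolase for medium chains, had the highest mean of the step over the 6 libraries, though not in each of them, and measured 376.5, 405 and 448 FPKM and then 305, 341 and 328 FPKM. Its groups did not overlap, but its log2 fold change was only -0.33 (SE 0.31), and with trends removed, at -0.25, the groups overlapped.

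Eci1 and Eci2 encode enoyl-CoA isomerases that shift double bonds of unsaturated fatty acids. Eci1 measured 202, 354 and 534.5 FPKM and then 192.6, 412.7 and 234 FPKM. Eci2 measured 82.5, 84.3 and 46.9 FPKM and then 69.9, 114.5 and 87.4 FPKM. Wildtype-labelled replicate 3 had the highest Eci1 and the lowest Eci2 level, and its ratio of Eci1 to Eci2, 11.4, stood above the 2.45 to 4.20 of the other 5 libraries. The log2 ratio of Eci1 to Eci2 differed by -0.71 between the groups (exact permutation p = 0.4), and by -0.10 without that library.

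The dehydrogenases of the first step, ordered from very long to short chains, are Acadvl, Acadl, Acadm and Acads. Acadl was the steadiest of them, from 322 to 382 FPKM, with a log2 fold change of 0.06 (SE 0.31). Acadm ranged from 143.4 to 273.8 FPKM and Acadvl from 121 to 261 FPKM, with log2 fold changes of 0.01 (SE 0.35) and -0.09 (SE 0.37). Acads was at 241 FPKM in wildtype-labelled replicate 3 and at 72.0 to 107.9 FPKM in the other 5, and its log2 fold change of -0.49 (SE 0.44) was -0.01 without that library. The signs of Acadl, Acadm and Acadvl reversed with trends removed.

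Decr1, the dienoyl-CoA reductase needed for polyunsaturated fatty acids, showed the opposite pattern to Acads. It was at 16.0 FPKM in wildtype-labelled replicate 3 and at 42.4 to 64.4 FPKM elsewhere, and its log2 fold change of 0.58 (SE 0.47) was 0.02 without that library. Ech1, a dienoyl-CoA isomerase, ranged from 166 to 486 FPKM, with a log2 fold change of -0.39 (SE 0.44) that was 0.04 without the same library. The hydratase Echs1 ranged from 196 to 276 FPKM at -0.08 (SE 0.32), and the hydroxyacyl-CoA dehydrogenase Hadh from 193.6 to 257.4 FPKM at 0.02 (SE 0.31) on the log2 scale.

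The electron transfer flavoprotein is a dimer of the products of Etfa and Etfb, and Etfdh encodes the dehydrogenase that passes its electrons to ubiquinone. Of the 3 genes, 2 had a higher and 1 a lower knockout-labelled mean, and the median log2 fold change was 0.27, but 0.07 with trends removed and -0.07 without wildtype-labelled replicate 3. Etfa measured 251, 312 and 124.8 FPKM and then 235, 324 and 227 FPKM. Etfb measured 385, 757 and 1666 FPKM and then 453, 636 and 471 FPKM. On the log2 scale Etfb differed by -0.61 (SE 0.54), or -0.07 without wildtype-labelled replicate 3. That library held the lowest Etfa and the highest Etfb value, so its ratio of Etfa to Etfb was 0.0749, against 0.653 and 0.412 in the other wildtype-labelled and 0.518, 0.509 and 0.481 in the knockout-labelled libraries. The log2 ratio differed by 0.89 between the groups (exact permutation p = 0.7), and by -0.05 without that library. Etfdh measured 143.6, 92.4 and 82.7 FPKM and then 128, 117.8 and 135 FPKM, with overlapping groups and a log2 fold change of 0.29 (SE 0.31), or 0.14 without the same library.

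Pdk4 inhibits pyruvate dehydrogenase and so limits the use of glucose when fatty acids are burned. It measured 16.7, 16.4 and 8.36 FPKM and then 16.0, 9.57 and 9.09 FPKM. Each group held both high and low libraries, and the log2 fold change was -0.23 (SE 0.35), or -0.54 without wildtype-labelled replicate 3. Ucp3, a mitochondrial uncoupling protein of muscle, had 0 to 3 reads per library and was not tested.

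**Figure D5:**
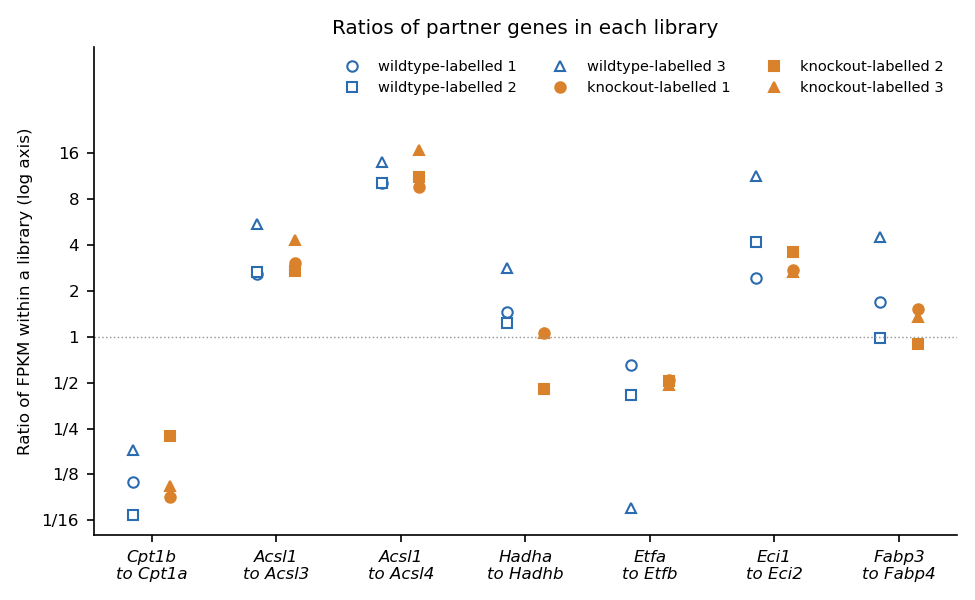
Ratio of the FPKM of partner genes within each library, on a log axis, for 7 pairs; symbols as in the plot of levels. Hadha to Hadhb is the pair whose groups do not overlap (1.23 to 2.83 against 0.454 to 1.07), and wildtype-labelled replicate 3 lies far from the others for Etfa to Etfb at 0.0749 and for Eci1 to Eci2 at 11.4.

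The remaining partner ratios did not separate the groups. Acsl1 exceeded Acsl3 by 2.57 to 5.54 times and Acsl4 by 9.64 to 16.8 times in each of the 6 libraries, and neither log2 ratio differed between groups beyond the spread (exact permutation p = 1.0 and p = 0.7). The FPKM ratio of Fabp3 to Fabp4 ran from 0.896 to 4.56 (exact permutation p = 0.4). After adjustment over the 7 ratios the lowest p was 0.7.

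Other genes around the pathway were read from lists made by function. In none of the 5 lists did limma call a gene at an adjusted p under 0.05. The further fatty acid genes had 33 tested members, of which 19 had a higher and 14 a lower knockout-labelled mean, and the median log2 fold change was 0.06. At an unadjusted p under 0.05 the count was 1 of these 33, Acot1, against 3.25% of all tested genes. Crot, the peroxisomal carnitine octanoyltransferase, differed by 0.75 (SE 0.38), or 0.32 without wildtype-labelled replicate 3. Bdh1, the ketone body enzyme that acts on 3-hydroxybutyrate, differed by 0.55 (SE 0.28), or 0.56 without that library, from 2.96, 4.26 and 3.69 FPKM to 3.90, 6.18 and 6.85 FPKM, with overlapping groups.

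Of 15 tested lipid storage genes, 4 had a higher and 11 a lower mean, with a median of -0.16 that was 0.03 with trends removed. Dgat2, which makes triglyceride, differed by -0.68 (SE 0.45), Agpat2, which makes phosphatidic acid, by -0.56 (SE 0.35), and Abhd5, the activator of adipose triglyceride lipase, by 0.46 (SE 0.26) on the log2 scale. Without wildtype-labelled replicate 3 these were -0.15, -0.17 and 0.28, and the list median was 0.08. The Agpat2 groups did not overlap, at 13.4, 15.9 and 34.1 FPKM against 12.9, 13.1 and 12.9 FPKM. This held for 1 of the 15 genes, against 9.76% of all tested genes.

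Of 20 tested regulators, 5 had a higher and 15 a lower mean, and the median log2 fold change was -0.21 (trend-removed -0.23, and -0.04 at a common FPKM total). Esrra, a nuclear receptor that drives oxidative genes, measured 69.4, 110.7 and 243.9 FPKM and then 72.2, 98.3 and 77.3 FPKM. The difference of -0.59 (SE 0.45) was -0.10 without wildtype-labelled replicate 3, the highest library. Klf15, a factor that favours lipid use in heart muscle, measured 17.0, 19.0 and 17.2 FPKM and then 11.4, 14.3 and 14.8 FPKM, with no overlap and a log2 fold change of -0.39 (SE 0.23). Groups did not overlap in 2 of the 20 regulators, against 9.76% of all tested genes. Sirt3, a mitochondrial deacetylase, differed by -0.52 (SE 0.37), or -0.14 without wildtype-labelled replicate 3.

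Of 15 fuel choice genes, 5 had a higher and 10 a lower mean, with a median of -0.05 that turned to 0.13 at a common FPKM total and to 0.09 after quantile normalization. Pdk2, another kinase of pyruvate dehydrogenase, measured 70.8, 109.6 and 181.6 FPKM and then 68.9, 58.5 and 65.6 FPKM. The groups did not overlap, which held for 1 of the 15 genes and for 9.76% of all tested genes. The log2 fold change of Pdk2 was -0.80 (SE 0.37), or -0.45 without wildtype-labelled replicate 3. Pdp1, the opposing phosphatase, differed by 0.46 (SE 0.36) and Slc2a4, the insulin-responsive glucose transporter, by -0.47 (SE 0.39) on the log2 scale, or 0.06 and -0.03 without that library.

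Of 18 mitochondrial core genes, 4 had a higher and 14 a lower mean, and the median log2 fold change was -0.19 (-0.04 without wildtype-labelled replicate 3). Uqcrc2, a subunit of complex III, differed by 0.59 (SE 0.38), Cox4i1, a subunit of complex IV, by -0.69 (SE 0.59), and Ndufv1, a subunit of complex I, by -0.53 (SE 0.40) on the log2 scale. Without that library they were 0.32, -0.14 and -0.18.

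Cell type markers were read beside these lists. Cardiomyocyte markers, all 11 of which were present in every library, had 1 higher and 10 lower knockout-labelled means. Their median log2 fold change was -0.42 (-0.22 without wildtype-labelled replicate 3). With trends removed, 3 were higher and 8 lower, with a median of -0.29. Their sum was 27191 to 37150 FPKM in the wildtype-labelled and 22758 to 28371 FPKM in the knockout-labelled libraries. The median was 0.43 for 7 fibroblast markers, both with and without that library, and 0.22 with trends removed. It was 0.04 for 7 macrophage and -0.08 for 6 smooth muscle and pericyte markers, or 0.38 and 0.41 without that library. Of the erythroid list, 3 of 6 were tested, with a median of 0.42 (0.21 without that library), and Hba-a1 and Hbb-bs were listed at 0. Of the brown fat list 3 of 6 were tested, with a median of -0.22 (-0.29 without it). In the liver list, 2 of 6 were tested, with Fabp1 at 0 in every library and a median of 0.67 (0.04 without it). In the skeletal muscle list, 1 of 7 was tested, Ckm, which heart muscle also expresses, at -0.63 (-0.20 without it), and Myod1 and Myf5 were at 0. The part of cell makeup in the member values was not tested.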

How the data were processed

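The members and lists were chosen with earlier results of these data known. Per the labels' protocols, poly(A) RNA was isolated from total RNA of 6 heart samples and sequenced. The authors deposited FPKM per gene, and a table of their comparison holding mean counts, log2 fold changes, p-values and adjusted p-values. The submitters' processing notes name mm10, FastQC and DESeq2; for the aligner, the read counting and the annotation, the sources used here give no name. Each gene's FPKM were rescaled to its mean count in the authors' deposited table and divided by a unit estimated for each library. This gave whole reads for 100.0% of 94235 values above 0 (tolerance 0.01 read), so the FPKM had been scaled between libraries. Depth comes from those reads.

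Differences were tested with limma 3.58.1 in R 4.3.3 (eBayes with an intensity trend, two-sided) on log2(FPKM + 0.5), over 12121 genes with at least 1 FPKM in 3 or more libraries. Benjamini-Hochberg adjustment ran over all of them, with a threshold of 0.05. A log2 fold change is on the log2(FPKM + 0.5) scale, which understates low genes. Trends on GC content and length were taken by loess (span 0.3). GC content was that of the longest GENCODE transcript, found for 96.6% of tested genes and 34 members. Length was the relative length implied by a gene's mean count in the authors' deposited table over its mean FPKM. Partner ratios were tested by exact permutation over the 6 libraries. The limma fits with and without the block, voom and the trend removal were checked on simulated data. The data simulated for the fits held no GC trend and no library that stood apart.

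Named in full were, per step, the members with the lowest 2 p-values, the one with the highest mean and the ratio genes; of each other list, at most 3 genes with the lowest p. The remaining members were described by range, and Acads, Decr1 and Ech1 after their values were seen. Samples of 1 replicate number deviated together (correlations 0.472, 0.443 and 0.186 for numbers 1, 2 and 3; trend-removed 0.275, 0.386 and 0.118), so the numbers may pair the samples; this comes from the data, since the labels only number them. Alternatives were other pseudocounts, filters, scalings and tests, the block, and each library left out.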

Additional observations from a re-analysis of the deposited data

How the results depend on the processing

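No member was called by limma under any of 19 alternatives: a pseudocount of 0.1 or 1, the filter dropped or set to a mean of 5 FPKM, a common FPKM total, quantile normalization, no intensity trend, library weights, voom on recovered reads, the replicate block, trends removed with and without it, each library left out, and trends removed without wildtype-labelled replicate 3, which was added after seeing the data. The lowest adjusted p of a member was 0.966 in the main test and 0.399 over the alternatives, so that a threshold of 0.1 called no member either. Library weights called 2 of all genes and trend removal 1, neither a member. With the replicate block 0 genes were called, 729 genes against 394 had an unadjusted p under 0.05, and no other call changed. The sign was the same in every alternative for 14 members: Cd36, Slc27a1, Acsl4, Acot2, Cpt2, Acads, Hadhb, Acaa2, Acat1, Eci1, Eci2, Etfb, Etfdh and Pdk4. Some alternatives could not change a sign: the replicate block and the dropped intensity trend leave each difference as it is. The same holds for leaving out 1 library where the groups did not overlap. Eci1 differed by -0.35 (SE 0.47) in the main test. Without wildtype-labelled replicate 3, Acads and Eci1 were at -0.01 and Etfb at -0.07.

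The signs of the genes below, on the log2 scale, reversed and the medians moved; the cause was not tested. With trends removed, with and without the block, Fabp3 was 0.15, Acadl -0.12, Acadm -0.10 and Acadvl 0.026, and the member median was -0.18. With trends removed and no block, the ratio of Acsl1 to Acsl3 differed by 0.0025. With trends removed and without wildtype-labelled replicate 3, Fabp3 was 0.11, Acadm -0.30, Acadvl 0.11, Etfa -0.14, Angptl4 0.25 and Mlycd 0.10, with medians of -0.14 for electron transfer and 0.18 for uptake. At a common FPKM total, Fabp3 was 0.11, Lpl 0.10, Cpt1a 0.15, Slc25a20 0.10, Acadvl 0.093 and Echs1 0.097, with medians of 0.097 for members, 0.14 for beta-oxidation, 0.10 for the carnitine shuttle, 0.13 for fuel choice, 0.20 for further fatty acid genes and -0.044 for regulators. After quantile normalization, Fabp3 was 0.13, Lpl 0.075, Slc25a20 0.033, Acadvl 0.085 and Echs1 0.085, with medians of 0.0094 for members, 0.11 for beta-oxidation and 0.094 for fuel choice. With library weights, Fabp3 was 0.0074, Fabp4 -0.10, Lpl 0.094, Acsl1 0.26, Cpt1a 0.46, Acadm -0.17, Acadvl 0.39, Hadh -0.040, Hadha 0.30, Etfa -0.23 and Decr1 -0.088, with medians of 0.13 for further fatty acid genes and -0.23 for electron transfer. With voom, Cpt1a was 0.024.

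Leaving out 1 library at a time, the difference ran from -0.28 to 0.19 for Acadm, -0.39 to 0.17 for Acadvl, -0.48 to 0.047 for Acsl1, -0.44 to 0.18 for Acsl3, -0.62 to 0.30 for Angptl4, -0.27 to 0.28 for Cpt1a, -0.35 to 0.36 for Cpt1b, -0.69 to 0.039 for Ech1, -0.24 to 0.020 for Echs1, -0.12 to 0.54 for Etfa, -0.27 to 0.19 for Fabp3, -0.11 to 0.10 for Hadh, -0.54 to 0.045 for Hadha, -0.23 to 0.077 for Lpl and -0.61 to 0.19 for Mlycd. For the log2 ratios it ran from -0.22 to 0.33 for Acsl1 to Acsl3, -0.14 to 0.26 for Acsl1 to Acsl4, -0.20 to 0.56 for Cpt1b to Cpt1a and -0.045 to 1.52 for Etfa to Etfb. For the medians it ran from -0.21 to 0.0037 for fuel choice, 0.050 to 0.16 for further fatty acid genes, -0.33 to -0.056 for regulators, -0.27 to 0.0088 for all members, -0.35 to 0.0088 for carnitine shuttle, -0.070 to 0.39 for electron transfer and -0.18 to 0.23 for uptake. Few reads limit Cpt1b and Ucp3 most.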

Other observations

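The promoter windows of the members, from 250 bases before to 50 after each start in RefSeq (GRCm38.p6), were read for 4 motifs on both strands; 27 of the 34 genes had a window. The letters GGGCGG, a GC box, were found in the windows of 19 members (70.4%), against 38.2% of the 27025 genes with a window. The letters CCAAT were found for 13 members (48.1%), against 41.1% of genes. The element of the estrogen-related receptors, TNAAGGTCA, was found for 0 members and 1.43% of genes. The direct repeat bound by PPAR and RXR, 2 copies of AGGTCA in 1 direction with any 1 base between, was found for 0 members and 0.0481% of genes. The windows of Hadha and Hadhb overlap, so letters that they share count for both genes. The background holds every gene with a window, also genes not tested here for low levels. These are matches of letters in a short window, given with no test.

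Among the further fatty acid genes, Acsl5, a long-chain acyl-CoA synthetase, and Ivd, the isovaleryl-CoA dehydrogenase of leucine breakdown, also had groups that did not overlap; both were named after their values were seen. In all, 3 of the 33 tested genes of that list did not overlap, against 9.76% of all tested genes. Acsl5 measured 15.4, 15.3 and 8.88 FPKM under the wildtype label and 15.8, 16.6 and 17.3 FPKM under the knockout label, a log2 fold change of 0.36 (SE 0.28), or 0.11 without wildtype-labelled replicate 3. Ivd measured 81.2, 86.5 and 122.8 FPKM and then 72.7, 74.6 and 76.6 FPKM, a log2 fold change of -0.35 (SE 0.28), or -0.17 without that library. Neither passed the test. Pparg, a lipid-handling nuclear receptor, measured 2.30, 1.98 and 1.56 FPKM and then 2.33, 2.56 and 2.74 FPKM, a difference of 0.33 (SE 0.26) on the log2 scale, or 0.21 without that library, and also did not pass it.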
